A study of Rattus norvegicus with 2 samples.

Results

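The genes described here are 34 components of the unfolded protein response and the integrated stress response, measured in 2 single colonies grown from C6, an established rat glioma line. They were chosen by name, with earlier results of these data known. These were 13 genes of the ATF4-CHOP arm and 12 chaperones and foldases of the endoplasmic reticulum (ER). The others were 5 sensors and transducers and 4 genes of ER-associated degradation. A gene was represented by the array feature, with exactly 1 gene symbol in the platform annotation, that had the highest mean level. This gave 33 of the 34 genes, out of 18166 genes in all, each with 1 feature. Sesn2 had no such feature and was not analysed here.

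Colony No.8 and colony No.4 were each hybridized to 1 whole-transcript expression array, both from total RNA of cells grown with 10% serum. Both titles call the colony undifferentiated, and both arrays carry the same treatment text, CHIR99021 at 20 µM, an inhibitor of the kinase GSK3, with forskolin at 100 µM, which raises cyclic AMP, for 35 days. The labels do not settle whether the RNA was taken before or after that treatment, and both colonies share it either way. Each colony is a single colony of 1 line, so the comparison is between 2 isolates and not between treatments or genotypes. Neither colony had a replicate array, so no test was made, and the number of arrays limits the precision. A difference between the colonies cannot be told apart from a difference between cultures or hybridizations. Every difference below is No.8 minus No.4, in log2 units of the deposited values.

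The deposited levels had nearly equal quartiles, with medians of 4.31 in colony No.8, against 4.34 in colony No.4. The median of all values, 4.33, served as a floor, and 11069 genes reached it in 1 colony or both. Genes of olfactory receptors, silent in most tissues, served as a guide to background, with a 99th percentile of 5.67 and a median of 2.74. Of the genes used as markers of C6 and glia, Vim (12.60 in No.8, against 12.57 in No.4), Nes (9.94 in No.8, against 9.54 in No.4), S100b (8.46 in No.8, against 8.24 in No.4) and Sox2 (8.44 in No.8, against 9.08 in No.4) were bright in both colonies. The astrocyte filament gene Gfap was at 5.17 in No.8, against 4.11 in No.4, both under 5.67. The leukocyte markers Ptprc, Cx3cr1 and Itgam, the endothelial markers Cdh5, Vwf and Emcn and the fibroblast markers Dcn and Lum did not reach the floor in either colony. The oligodendrocyte and neuron markers measured here, Mbp, Mog, Rbfox3, Snap25 and Syt1, were all under 5 in both.

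When unfolded proteins accumulate in the ER, 3 membrane sensors respond. PERK (encoded by Eif2ak3) phosphorylates the initiation factor eIF2, which slows protein synthesis in general while the mRNA of the transcription factor ATF4 is translated more. IRE1 (Ern1) splices the mRNA of XBP1, and ATF6 is cleaved to a transcription factor, and both of these raise chaperones and degradation factors. GCN2 (Eif2ak4) reaches eIF2 and ATF4 from amino acid shortage instead, so ATF4 target genes respond to nutrient supply as well as to the ER. CHOP (Ddit3) lies downstream of ATF4 and is known for its part in cell death under lasting stress. Tumour cells, gliomas among them, are known to use both programmes.

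Different promoter elements are known for ATF4, ATF6 and XBP1, and the promoters of the members are shown for that reason. A promoter can hold more than 1 kind of element, so the elements do not sort genes cleanly into the arms. RefSeq promoters of build GRCr8, from 250 bases before to 50 after the gene start, were matched by symbol for 28 of the 34 genes. Those of Atf3, Pdia3, Pdia6, Manf, Ern1 and Atf6 were not analysed here. Both strands were searched for the ER stress element bound by ATF6 with NF-Y, which is CCAAT and CCACG with 9 free bases between them. Of all 33469 promoters in the table, 22 held it, or 0.0657%. Among these 22 were 7 members: 6 of the 9 chaperones and foldases with a promoter, which were Hspa5, Hsp90b1, Calr, Canx, Creld2 and Dnajc3, and Xbp1 of the 3 sensors and transducers. None of the 12 promoters of the ATF4-CHOP arm held these exact letters, and near matches or sites outside the window were not counted. A match is a description of the sequence and not a binding site.

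The matched stretches are listed in the direction of the element, with its fixed letters in capitals and the 9 free positions in lower case. Hsp90b1 held 2 of them.
Hspa5 (first base 43 before the start): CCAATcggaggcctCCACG
Hsp90b1 (176 before the start): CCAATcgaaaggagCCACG
Hsp90b1 (72 before the start, opposite strand): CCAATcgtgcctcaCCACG
Xbp1 (65 before the start): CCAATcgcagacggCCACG
Dnajc3 (133 before the start): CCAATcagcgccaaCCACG
Creld2 (145 before the start, opposite strand): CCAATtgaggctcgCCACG
Canx (230 before the start): CCAATcatcacgctCCACG
Calr (232 before the start, opposite strand): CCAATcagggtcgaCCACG

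TGATGNAA, the core of the composite element bound by ATF4 with C/EBP partners, was found in 3 of the 28 member promoters, those of Chac1, Trib3 and Herpud1, against 3.98% of all promoters. Herpud1 also held the second ER stress element, ATTGG and CCACG with 1 free base between them, which 17 of all promoters held. TGACGTCA, the cyclic AMP response element, was found in Ppp1r15a alone among the members and in 1.83% of all promoters. TGACGTGG, the unfolded protein response element bound by XBP1, was in no member promoter and in 0.595% of all promoters. No 2 matches in a member promoter overlapped. The 250 bases before the start are printed for Ddit3, which differed most between the colonies and held none of these letters, and for 4 members that did, with matches in capitals.
Ddit3 (chr7:65001445-65001694, + strand): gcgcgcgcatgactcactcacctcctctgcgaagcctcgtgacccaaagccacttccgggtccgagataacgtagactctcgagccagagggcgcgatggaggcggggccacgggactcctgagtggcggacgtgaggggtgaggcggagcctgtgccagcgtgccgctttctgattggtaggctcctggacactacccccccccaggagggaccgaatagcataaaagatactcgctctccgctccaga
Chac1 (chr3:126795881-126796130, + strand): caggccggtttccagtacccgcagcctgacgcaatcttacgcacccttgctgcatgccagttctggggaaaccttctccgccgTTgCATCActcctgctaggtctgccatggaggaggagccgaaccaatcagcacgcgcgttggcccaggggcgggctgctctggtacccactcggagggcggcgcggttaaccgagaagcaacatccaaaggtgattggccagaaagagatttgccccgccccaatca
Ppp1r15a (chr1:105139597-105139846, - strand): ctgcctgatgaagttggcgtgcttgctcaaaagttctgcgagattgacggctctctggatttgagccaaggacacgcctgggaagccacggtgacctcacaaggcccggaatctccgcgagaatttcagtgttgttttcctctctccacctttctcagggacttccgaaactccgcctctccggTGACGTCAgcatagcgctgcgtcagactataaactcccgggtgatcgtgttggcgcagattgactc
Hspa5 (chr3:38452766-38453015, + strand): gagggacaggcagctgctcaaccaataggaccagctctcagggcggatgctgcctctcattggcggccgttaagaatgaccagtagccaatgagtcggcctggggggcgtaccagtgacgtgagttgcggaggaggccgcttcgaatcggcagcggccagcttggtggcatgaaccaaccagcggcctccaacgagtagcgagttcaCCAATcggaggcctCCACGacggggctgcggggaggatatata
Herpud1 (chr19:10614708-10614957, - strand): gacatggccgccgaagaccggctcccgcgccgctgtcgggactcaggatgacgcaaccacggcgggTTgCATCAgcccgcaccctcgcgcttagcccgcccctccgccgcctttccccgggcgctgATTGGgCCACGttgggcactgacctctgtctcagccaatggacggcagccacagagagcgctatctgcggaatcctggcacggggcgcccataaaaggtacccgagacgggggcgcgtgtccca

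Most members were lower in colony No.8, by amounts that were small for most and large for 2 genes. In No.8, 25 of the 33 measured genes had the lower level and 7 the higher, and Canx had the same value in both. The median difference was -0.31, against 0.04 over all genes past the floor, of which 45.5% were lower in No.8. Ddit3 and Ern1 were at least 2-fold lower in No.8. These 2 genes are 6.06% of the members, against 2.57% of all genes past the floor, a share that in a list of 33 genes comes to 0.847 genes. All measured members but Atf3 had a level of at least 6 in the brighter colony. Among all genes that bright, 3.20% were at least 2-fold lower in No.8 and 9.48% at least 1.5-fold lower. No member was at least 2-fold higher, against 2.91% of all genes past the floor. At 1.5-fold, 11 members were lower in No.8, or 33.3%, against a background of 7.93%, and Edem1 alone was higher, against 9.87%. Because the members were chosen with earlier results of these data known, these shares are descriptive only. All 33 members were past the floor, and only Atf3 and, in No.8, Sdf2l1 had levels under 5.67.

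**Figure D1:**
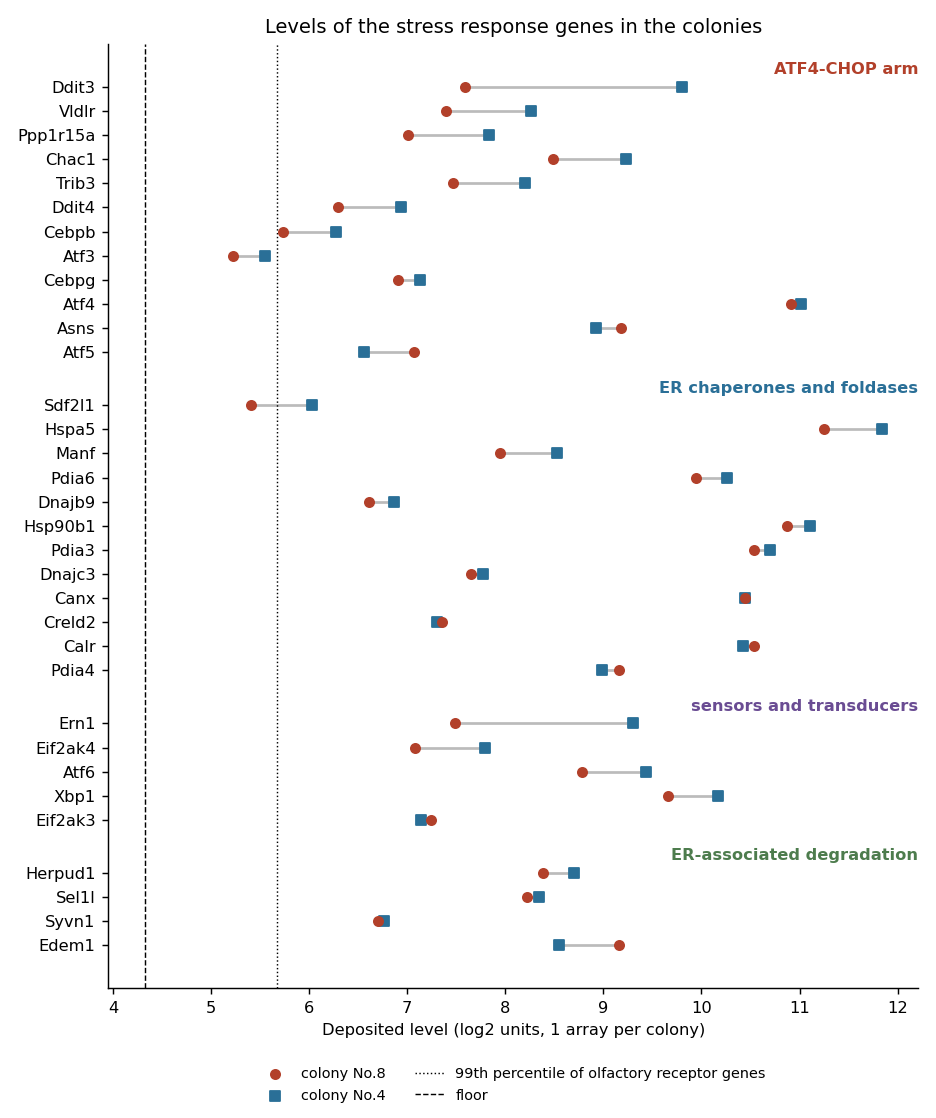
Deposited level (horizontal axis, log2 units) of each of the 33 measured members in colony No.8 (circles) and colony No.4 (squares), 1 array each, grouped by role. The gaps of Ddit3 (7.59 in No.8, against 9.80 in No.4) and Ern1 (7.48 in No.8, against 9.30 in No.4) are the widest, and levels of different genes are not comparable with each other.

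In the ATF4-CHOP arm, Ddit3 was far lower in colony No.8, while Atf4, which induces it, differed little. In No.8, 10 of the 12 measured genes of the arm were lower and 2 higher, with a median of -0.59. At 1.5-fold, 6 of the 12 were lower in No.8 and 0 higher, against 7.93% and 9.87% of all genes past the floor.

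The transcription factors of the arm all belong to the bZIP family, whose members bind DNA as pairs. Ddit3, which encodes CHOP, was at 7.59 in colony No.8, against 9.80 in colony No.4, a difference of -2.21 or 4.63-fold. Of the 11069 genes past the floor, 25 including Ddit3 were this far or further down in No.8. Atf4, the factor that induces it, was at 10.92 in No.8, against 11.01 in No.4, a difference of -0.09. ATF4 is controlled largely through translation, which an mRNA level does not report. Cebpb, a C/EBP factor that pairs with both ATF4 and CHOP, was at 5.74 in No.8, against 6.27 in No.4, with the No.8 level close to the 5.67 guide. Cebpg, another pairing partner of ATF4, was at 6.90 in No.8, against 7.13 in No.4. Atf3, a stress-induced repressor, was at 5.22 in No.8, against 5.55 in No.4, both under that guide. Atf5, itself translated under eIF2 control, went the other way, at 7.07 in No.8, against 6.56 in No.4.

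The other measured genes of the arm are effectors, set apart from the transcription factors after the values were seen, so the split supports no pattern of its own. Vldlr, a lipoprotein receptor induced by ATF4, was at 7.40 in colony No.8, against 8.27 in colony No.4 (-0.87). Ppp1r15a, or GADD34, which directs a phosphatase back to eIF2 and so ends the block on translation, was at 7.01 in No.8, against 7.83 in No.4 (-0.83). Chac1, an enzyme that breaks down glutathione, was at 8.49 in No.8, against 9.23 in No.4 (-0.75). These 3 genes, with Trib3 and Ddit4, were 1.56-fold to 1.83-fold lower in No.8. Trib3, a pseudokinase that restrains AKT and CHOP, was at 7.47 in No.8, against 8.20 in No.4. Ddit4, or REDD1, an inhibitor of the growth kinase mTORC1, was at 6.30 in No.8, against 6.94 in No.4. Asns, which makes asparagine and is a textbook ATF4 target, was higher in No.8, at 9.18 against 8.92 in No.4. The effectors whose promoters are printed above, Chac1 and Ppp1r15a, were among the 10 of 12 measured arm members that were lower in No.8. Those 10 include Vldlr and Ddit4, whose promoters held none of the searched letters, and a link to the motifs was not tested.

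The ER chaperones and foldases had a median closer to 0 than the ATF4-CHOP arm, and 9 of the 12 lay between -0.32 and 0.17. Their median was -0.20, or 1.15-fold, with 8 lower in No.8, 3 higher and Canx equal. At 2-fold, 0 of the 12 were counted, near the background of 2.57% lower and 2.91% higher, which is no result about this list. At 1.5-fold, 2 of the 12 chaperones were lower in No.8 (16.7%) and 0 higher, against 7.93% and 9.87% of all genes past the floor. The ATF4-CHOP arm had 1 of 12 lower at 2-fold and 6 of 12 at 1.5-fold. The chaperone differences ran from -0.62 to 0.17, a span of 0.79, while those of the ATF4-CHOP arm spanned 2.71. Ddit3 set much of that span, and without it the arm ran from -0.87 for Vldlr to 0.50 for Atf5. Of the 12 arm members, 6 lay below every chaperone, 2 above every chaperone and 4 within their range. The arm's median minus that of the chaperones was -0.39 log2 units, and -0.34 without Ddit3. With an offset of 64 on the linear scale it was -0.17, and the arm's median was -0.33. Members of a list are not replicates of a colony, so this comparison has no test.

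Hspa5, or BiP, the main HSP70 chaperone of the ER and the usual readout of ER stress, was at 11.25 in colony No.8, against 11.84 in colony No.4 (-0.59). Sdf2l1, a partner of BiP, was at 5.41 in No.8, against 6.03 in No.4 (-0.62), with only the No.4 level above 5.67. Manf, a secreted protein that binds BiP and protects neurons, was at 7.95 in No.8, against 8.53 in No.4 (-0.58). These 3 stood together at the lower end, and the next chaperone was Pdia6, a disulfide isomerase, at 9.94 in No.8, against 10.26 in No.4. Hsp90b1, or GRP94, the HSP90 of the ER, was at 10.87 in No.8, against 11.11 in No.4. The BiP co-chaperones Dnajb9 (6.61 in No.8, against 6.86 in No.4) and Dnajc3 (7.65 in No.8, against 7.77 in No.4) differed by -0.26 and -0.12.

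The lectin chaperones, which fold glycoproteins, were nearly level. Canx, or calnexin, had the value 10.45 in both colonies, as 145 genes past the floor had equal values in both. Calr, or calreticulin, was at 10.54 in No.8, against 10.42 in No.4, and their partner Pdia3 was at 10.54 in No.8, against 10.70 in No.4. Pdia4 (9.16 in No.8, against 8.99 in No.4) and Creld2 (7.35 in No.8, against 7.30 in No.4), both linked to disulfide bonding, were slightly higher in No.8. The 7 members whose promoters held the ER stress element ranged from -0.59 for Hspa5 to 0.12 for Calr, with a median of -0.12; 4 were lower in No.8, 2 higher and 1 equal.

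**Figure D2:**
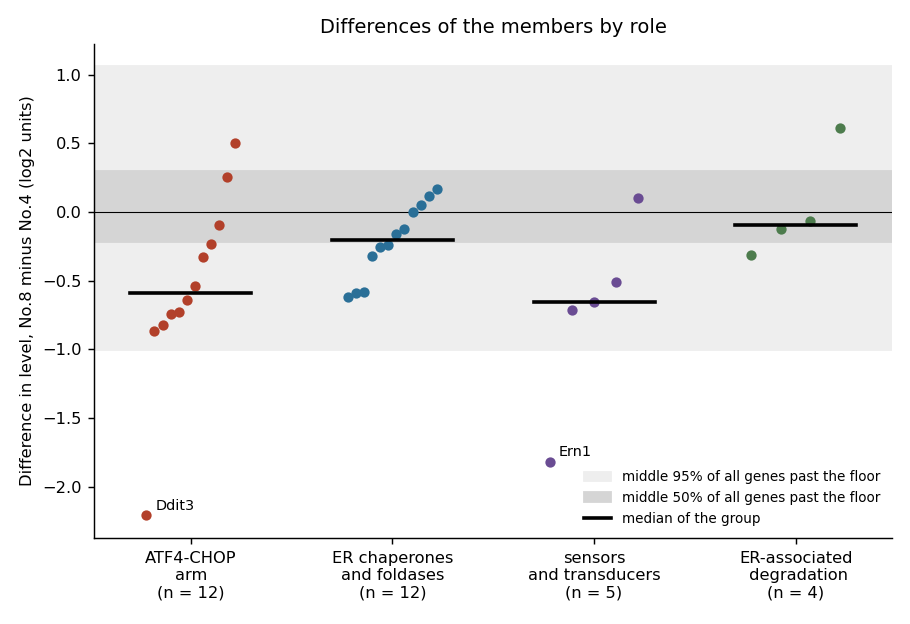
Difference in level, colony No.8 minus colony No.4 (vertical axis, log2 units), of the measured members by role, 1 point per gene, with black bars for group medians. The medians are -0.59 for the ATF4-CHOP arm, -0.20 for the ER chaperones and foldases, -0.66 for the sensors and transducers and -0.09 for ER-associated degradation, beside bands for the middle 50% (-0.22 to 0.30) and middle 95% (-1.01 to 1.06) of all genes past the floor.

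Among the sensors and transducers, 4 of 5 were lower in colony No.8. Their median was -0.66, and Ern1 stood out. Ern1, the kinase and RNase IRE1 that opens the XBP1 branch, was at 7.48 in No.8, against 9.30 in No.4, a difference of -1.82 or 3.53-fold. Of all genes past the floor, 54 including Ern1 were this low or lower. Without Ern1 the median of the other 4 was -0.58. Xbp1, whose mRNA IRE1 splices, was at 9.66 in No.8, against 10.17 in No.4 (-0.51). The array value does not report how much of it was spliced.

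The sensor of the third branch, Atf6, was at 8.78 in No.8, against 9.44 in No.4 (-0.66). Of the eIF2 kinases, Eif2ak4, the amino acid sensor GCN2, was at 7.08 in No.8, against 7.79 in No.4 (-0.71). Eif2ak3, the ER sensor PERK, was at 7.25 in No.8, against 7.14 in No.4 (0.11). At the mRNA level, 3 of these 4 stress sensors were 1.58-fold to 3.53-fold lower in No.8, and PERK, the sensor that feeds ATF4 from the ER, was the one nearest to equal. Sensor activity depends on phosphorylation and cleavage, which were not measured.

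The 4 degradation genes had a median of -0.09, with 3 lower and 1 higher in No.8. Herpud1, which organises the ubiquitin ligase complex at the ER membrane, was at 8.39 in No.8, against 8.70 in No.4 (-0.31), with both ATF4 and ER stress letters in its promoter above. Sel1l and Syvn1, the core of that ligase complex, differed by -0.12 and -0.06. Sel1l was at 8.22 in No.8, against 8.34 in No.4, and Syvn1 at 6.70 in No.8, against 6.76 in No.4. Edem1, a lectin that hands misfolded glycoproteins to degradation and a known XBP1 target, was higher in No.8, at 9.15 against 8.54 in No.4. Its difference of 0.61 was the highest of all members, and opposite in sign to those of Ern1 and Xbp1.

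**Figure D3:**
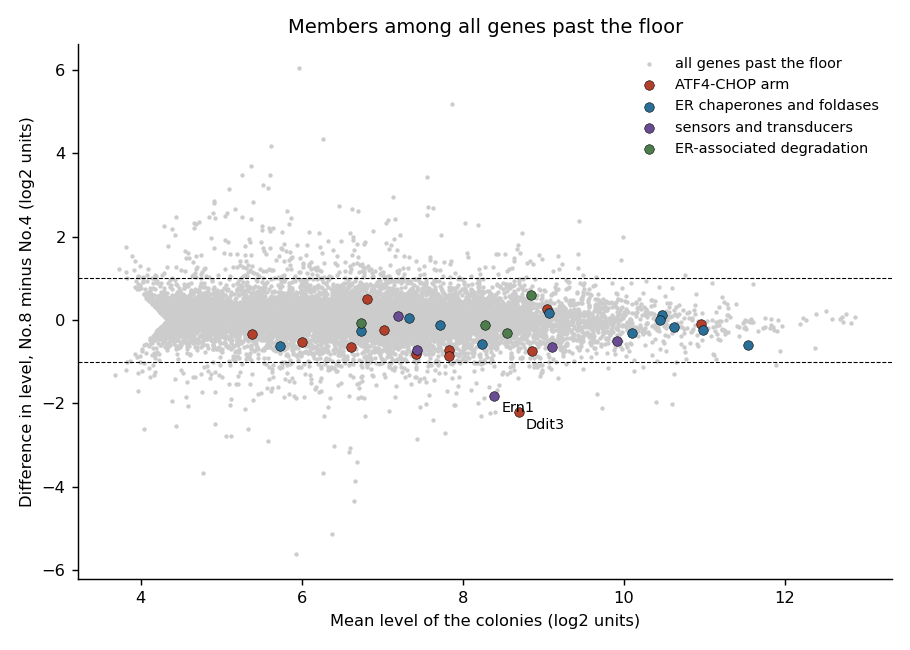
Difference in level, colony No.8 minus colony No.4 (vertical axis, log2 units), against the mean level of both colonies (horizontal axis, log2 units) for all 11069 genes past the floor (grey) and the 33 members (coloured by role), with dashed lines at 2-fold. Ddit3 (-2.21) and Ern1 (-1.82) lie below the lower line, and the other members lie between the lines.

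Other genes of the pathway were described from lists of related genes, and their differences are given beside those of the members with no test between lists. Of 24 further ATF4-linked genes, 17 were higher and 7 lower in No.8, with a median of 0.27, and 22 were past the floor. Of all 18166 genes, 9489 were higher in No.8 and 11069 were past the floor. Of these 22, 1, the cystine transporter gene Slc7a11, was at least 2-fold lower in No.8, beside the 2.57% background, at 7.70 against 8.76 in No.4. At 1.5-fold the list went both ways. Of the 24, 5 were lower in No.8 (20.8%) and 7 higher (29.2%), against 7.93% and 9.87% of all genes past the floor. Nupr1, a stress-induced chromatin protein, was at 8.58 in No.8, against 9.58 in No.4, just under 2-fold lower. Slc6a9, a glycine transporter, was at 8.62 in No.8, against 7.73 in No.4, and Slc7a1, a carrier of arginine and lysine, at 9.37 in No.8, against 8.65 in No.4.

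Grouped by role after their values were seen, the amino acid transporters had a median of 0.52 with 6 of 8 higher in No.8. The enzymes of amino acid and one-carbon metabolism had a median of 0.27 with 8 of 10 higher. The secreted and regulatory genes had a median of -0.25 with 3 of 6 higher. Past the floor were all 8 transporters, 9 of the 10 enzymes and 5 of the 6 secreted and regulatory genes. Because the split was made on these values, it supports no pattern of its own. Named after their values were seen, the leucine transporter gene Slc7a5 was at 10.56 in No.8, against 9.92 in No.4, and the serine hydroxymethyltransferase gene Shmt2 at 9.74 in No.8, against 9.10 in No.4. Pycr1, a proline synthesis enzyme, went the other way, at 8.68 in No.8, against 9.35 in No.4. The cytosolic aminoacyl tRNA synthetases, many of which ATF4 is known to induce, had a median of 0.20. In No.8, 14 of 19 were higher, against 9489 of all 18166 genes. At 2-fold, 0 of the 19 were counted, near the background of 2.57% lower and 2.91% higher. Farsb was at 8.54 in No.8, against 7.86 in No.4, Hars1 at 8.93 in No.8, against 8.43 in No.4, Gars1 at 11.47 in No.8, against 11.03 in No.4, and Nars1 at 10.35 in No.8, against 9.94 in No.4. Asns and Atf5 were the arm members that shared this direction.

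The remaining ER lists had medians near 0. The eIF2 machinery had a median of 0.03 over 12 genes, with Ppp1r15b, the constitutive partner of Ppp1r15a, at 8.45 in No.8, against 8.84 in No.4. Eif2b2, a subunit of the exchange factor that phosphorylated eIF2 blocks, was at 7.49 in No.8, against 7.90 in No.4. Oma1 and Dele1, which relay mitochondrial stress to eIF2 in human cells, differed by 0.37 and 0.30. Oma1 was at 5.52 in No.8, against 5.15 in No.4, both under the 5.67 guide. Other ER folding genes had a median of 0.04 over 21 genes. Ero1a, an oxidase of the ER that CHOP is known to induce, was higher in No.8, at 10.54 against 9.66 in No.4, opposite in sign to Ddit3. Dnajb11 (8.37 in No.8, against 7.78 in No.4) and Erp29 (7.15 in No.8, against 6.61 in No.4) were higher in No.8, and Sil1, the nucleotide exchange factor of BiP, lower (6.26 in No.8, against 6.81 in No.4).

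Other ER degradation genes had a median of -0.02 over 17 genes, with the ligase gene Rnf5 at 6.65 in No.8, against 7.36 in No.4 and the ubiquitin-conjugating enzyme gene Ube2g2 at 6.71 in No.8, against 7.29 in No.4. Erlec1, a lectin, differed by -0.44 and Ubxn4 by 0.41. The ER translocon and signal peptidase genes had a median of -0.08 over 13 genes, with all differences between -0.38 for Ssr3 and 0.30 for Serp1. Ssr2 and Sec61g differed by -0.27 each, with Sec61g at 5.64 in No.8, against 5.91 in No.4, close to the 5.67 guide. At 2-fold, 0 genes were counted in either list, near the background of 2.57% lower and 2.91% higher.

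Among 14 other sensor and transducer genes, the median was -0.04 and 11 were past the floor. Beside a background of 2.91%, 1 of these 11 was at least 2-fold higher in No.8, and that was Creb3l1. It encodes OASIS, an ER-anchored factor related to ATF6 that is known in mouse bone for its part in collagen production. The level of Creb3l1 was 6.50 in colony No.8, against 4.03 in colony No.4, below the floor. Counted from the floor it was at least 4.50-fold higher in No.8, and counted from 5.67 at least 1.77-fold. Its relative Creb3 was at 7.90 in No.8, against 7.19 in No.4. Mbtps2, the protease that makes the second cut in ATF6, was at 6.59 in No.8, against 7.30 in No.4, and Traf2, an adaptor of IRE1, at 5.97 in No.8, against 6.42 in No.4.

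**Figure D4:**
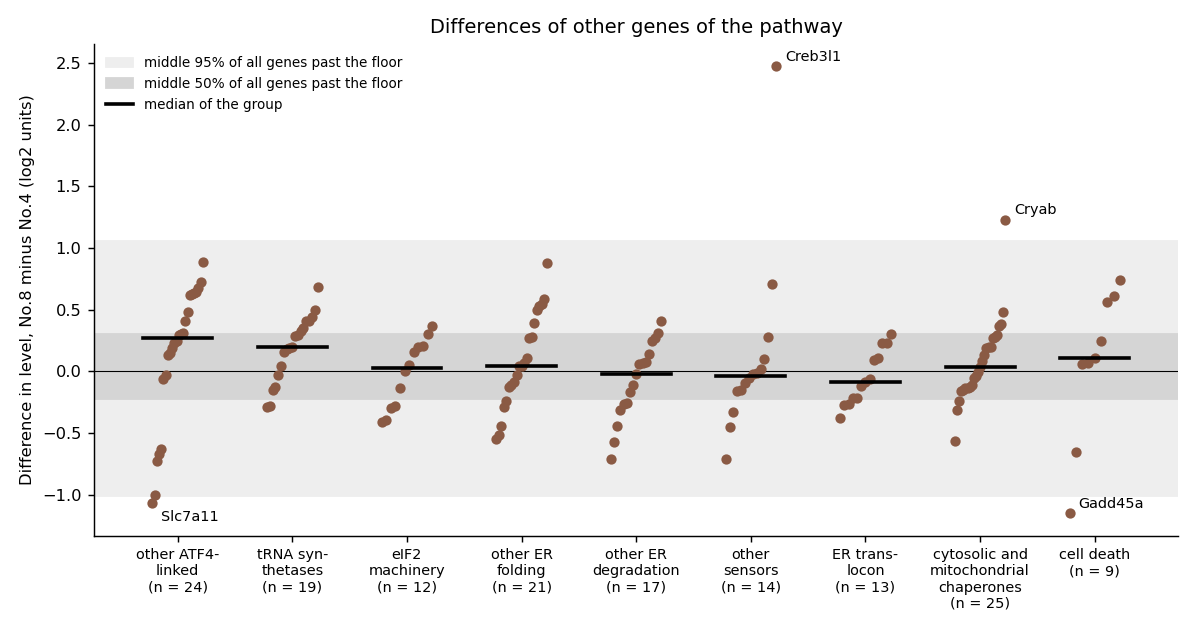
Difference in level, colony No.8 minus colony No.4 (vertical axis, log2 units), of genes in 9 further lists, 1 point per gene, with black bars for list medians and bands for the middle 50% and 95% of all genes past the floor. The other ATF4-linked genes (median 0.27) and the tRNA synthetases (0.20) lie mostly above 0, and the ER folding, degradation and translocon lists are centred within 0.1 of 0.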

How the data were processed

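Total RNA of 2 single colonies was measured on 1 whole-transcript array each. Per the labels' protocols, biotin was attached to fragments of sense cDNA. The authors deposited 1 value per feature on a log2 scale; the base was inferred, since values reach 13.3, more than a 16-bit scanner gives in natural or base-10 logs. Steps of background correction, normalization and summarization were not given in the sources used here; deposited values were compared as they stand. Of 36685 features, 18511 had exactly 1 gene symbol. No probe signal or detection call was used.

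Differences, medians and counts were computed with Python 3.11.15, pandas 2.3.3 and NumPy 2.4.6, and tested on simulated data. A difference of at least 1 (2-fold) past the floor was counted. Every member could be named; in other lists, the 4 genes past the floor with the largest differences, and the cell type markers. Members and lists were chosen with earlier results of these data known. Alternatives covered scaling, offset, feature choice, floor, fold size, list summary and promoter window; olfactory receptor genes as a background guide and the list without Ern1 were added after seeing the data.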

Additional observations from a re-analysis of the deposited data

How the results depend on the processing

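No paired analysis was possible because each colony has 1 array. Over 49 alternative values of the arm medians and their difference, 46 moved by less than 0.1 and 0 changed sign. Many of the 46 were fixed in advance and are no evidence of stability. Each measured member had 1 feature and all were past the floor, also when it was raised by 1 log2 unit. Feature and floor settings therefore could not change the medians or counts of members, and centring could not change the gap between 2 arms. The 3 exceptions came with an offset of 64 on the linear scale, which by its construction shrinks differences of dim genes. With it the ATF4-CHOP arm had a median of -0.33, the sensors and transducers -0.52, and the gap between the ATF4-CHOP arm and the ER chaperones was -0.17. Across all its alternatives that gap ran from -0.48 to -0.17. The members at least 2-fold lower numbered 2 under each scaling, offset, feature choice and floor, and at 1.5-fold there were 11 lower and 1 higher. Of the further lists, the cell death list had a median of 0.24 over genes past the floor and 0.01 after the loess, against 0.11 as deposited; the eIF2 machinery (-0.01 when centred) and the cytosolic and mitochondrial chaperones (down to -0.04) changed sign around 0. Of 33 members, Canx, equal as deposited, alone took a sign that depended on the scaling. In the 250 bases before the start alone, the counts of member promoters with each motif were the same, and those of all promoters were lower for 4 of the 5 motifs, such as 3.40% in place of 3.98% for TGATGNAA. Without replicates, no value here has an error, and without detection calls, levels under 5.67 may lie near background.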

Other observations

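Genes of stress-linked cell death and chaperones outside the ER had list medians of 0.11 and 0.04, against -0.59 for the ATF4-CHOP arm. Of 9 measured cell death genes, 7 were higher and 2 lower in colony No.8, against 9489 of all 18166 genes higher. Their median was 0.11, and 7 were past the floor. The median was 0.24 over those 7 and 0.01 after a loess on mean level. Gadd45a, a growth arrest gene of the DNA damage response, was at 9.23 in No.8, against 10.38 in No.4, 2.22-fold lower in No.8. No other gene of those 7 was at least 2-fold lower, beside a background of 2.57%. Bcl2l11, or BIM, a death activator that CHOP is known to induce, was at 6.26 in No.8, against 6.91 in No.4. Txnip, a thioredoxin inhibitor linked to IRE1, was higher in No.8, at 6.83 against 6.09 in No.4, and Casp12, an ER-linked caspase of rodents, was at 7.73 in No.8, against 7.12 in No.4. Tnfrsf10b, the death receptor that CHOP induces in human cells, was at 4.36 in No.8, against 3.80 in No.4, both under 5.67, and was named after its values were seen.

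The chaperones of the cytosol and mitochondria had a median of 0.04 over 25 genes, with 13 higher and 12 lower in colony No.8. Cryab, a small heat shock protein of glia, was at 9.81 in No.8, against 8.58 in No.4, and 1 of 24 genes past the floor at least 2-fold higher is near the background of 2.91%. Hsp90ab1, the constitutive cytosolic HSP90, was at 9.80 in No.8, against 10.36 in No.4. Hsph1, an HSP70 exchange factor, was at 7.75 in No.8, against 7.27 in No.4, and the chaperonin subunit gene Cct7 at 9.85 in No.8, against 9.47 in No.4.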
